A study of Homo sapiens with 17 samples.

Results

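DROSHA, the gene whose knockdown the study induced, was examined as the set of small-RNA alignments that lay inside it (hg19, chromosome 5, 31400602 to 31532282) in 8 tables of library-to-library ratios. An alignment is 1 distinct combination of start, end and strand. Of 14415896 distinct alignments in the 8 tables, 1326 lay inside the gene. Of these, 102 lay wholly inside the 31-base site that the hairpin targets (31511235 to 31511265), 35 on the plus strand and 67 on the minus strand. The rest of the gene held 1082 on the minus strand and 142 on the plus strand. The site was singled out because its ratios were known to be high, so its ratios are a description and were not tested. The rest of the gene was taken by position alone. The gene runs on the minus strand, so minus-strand RNA is sense to its messenger RNA and plus-strand RNA is antisense to it.

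The samples were small-RNA libraries of K562, a human leukaemia cell line, carrying a short hairpin RNA (shRNA) against Drosha that doxycycline (Dox) switches on. Cultures received 1 µg/mL Dox or water for 3, 13 or 31 d, and each of the 8 tables sets 1 Dox library and 1 water library of the same day and replicate number against each other. There were 2 tables at 3 d (replicates 1 and 3) and 3 each at 13 d and 31 d. All of these cells carry the hairpin construct, and the water cultures differ in lacking the inducer. The sample titles mark them as biological replicates and do not say whether a number is the same culture across days. An untreated library is not analysed here.

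DROSHA encodes the nuclear endonuclease that, with its partner DGCR8, cuts the stem loops of primary microRNA transcripts into precursor hairpins. Dicer then cuts the precursors in the cytoplasm into short duplexes, and 1 strand of each duplex is loaded into an Argonaute protein. A short hairpin RNA transcribed from a vector with a simple stem is cut by Dicer, usually without a need for Drosha, and its antisense strand guides Argonaute to the complementary messenger RNA. An shRNA stem is a copy of its target, so both strands of the processed stem align to the targeted stretch of the gene, and at that stretch hairpin-derived RNA and fragments of the messenger RNA share 1 place.

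Every value below starts from the ratio that the authors deposited for each alignment. The sources used here do not say which library of a pair is the numerator, so a high ratio is described as high in the numerator and no Dox direction is attached to it. It is assumed that the numerator is the same kind of library throughout the 8 tables. An alignment without denominator reads is not listed, and 1 without numerator reads has a ratio of 0. The read numbers behind the ratios were not used, because their columns name no library, so neither depth nor a counting interval is given. Gene names on hg19 were not used here either, so neither the other microRNA-processing genes nor markers of K562 were looked up. In bulk RNA, fewer cells with an RNA and less of it per cell cannot be told apart. The tables listed between 871027 and 3428554 alignments, and the median log2 ratio of a table, over alignments above 0, ran from -0.70 to 0.83. Low ratios recurred in steps, such as 0.307, 0.614 and 1.23 in 3 d replicate 1. The median log2 ratio of that table, -0.70, was that of the step 0.614. Medians near 0 are thus coarse and can tie exactly, and the read numbers behind a step were not examined.

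At the target site both strands had median deposited ratios far above 1 in each of the 8 tables. On the plus strand the median log2 ratio at 3 d was 8.12 in replicate 1 and 9.68 in replicate 3. At 13 d it was 9.87, 10.51 and 8.81 in replicates 1, 2 and 3, and at 31 d it was 6.62, 7.67 and 9.01. On the minus strand the same median was 7.34 and 9.69 in the 3 d tables, 7.87, 8.36 and 8.22 in the 13 d tables, and 5.38, 5.81 and 5.31 in the 31 d tables. The minus strand stood below the plus strand in 7 of 8 tables and 0.01 above it in 3 d replicate 3, and the gap was widest in 31 d replicate 3, at 3.70 on the log2 scale. Centring each table on its own median left the mean over the 8 tables at 8.76 for the plus strand, against 8.78 without centring, and at 7.23 for the minus strand, against 7.25.

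**Figure D1:**
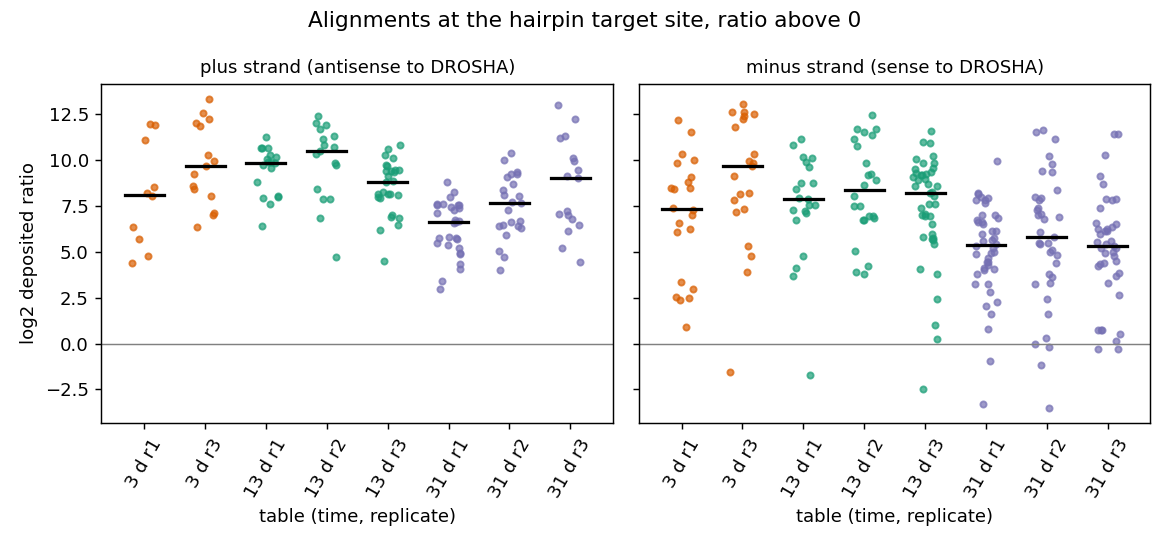
Each point is 1 alignment inside the target site with a ratio above 0, by table (time and replicate) and strand; the y axis is the log2 deposited ratio and black bars are the medians. Plus-strand points all lie above 0, whereas the minus strand has a tail of points at or below 0 in 6 of the 8 tables.

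A ratio of 10 or more was held by 27 of the 35 site alignments listed in 3 d replicate 1, where the share over all alignments of the table was 0.295%, and by 35 of 37 in 3 d replicate 3 (0.593% over all). At 13 d the counts were 38 of 39 in replicate 1 (0.698% over all), 41 of 41 in replicate 2 (0.499%) and 66 of 71 in replicate 3 (1.81%). At 31 d they were 63 of 76 in replicate 1 (0.167%), 51 of 62 in replicate 2 (2.42%) and 49 of 60 in replicate 3 (0.144%). The site was chosen on this contrast, so nothing is read from these shares. The low values were unevenly spread over the strands: on the plus strand 155 of 156 listings reached 10 and none was at 0, and on the minus strand 215 of 265 did and 12 were at 0. A listing is 1 alignment in 1 table.

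On the plus strand, the strand that can pair with DROSHA messenger RNA, the 3 alignments with the highest median ratio among those listed in all 8 tables shared a 5′ end at 31511242 and differed only at the 3′ end. The 24-nt form (31511242 to 31511265) had deposited ratios of 3800.2 and 10312 in the authors' deposited tables at 3 d, of 1594, 4204 and 693 at 13 d, and of 194, 423 and 4844 at 31 d. Its median over the tables was 2697. The 23-nt form (to 31511264) had a median of 1940 in the authors' deposited tables, with 2233 and 4779 at 3 d, 1647, 3361 and 707 at 13 d, then 158, 610.1 and 2594 at 31 d. The 22-nt form (to 31511263) had a median of 1071, with 3951 and 4109 at 3 d, 1158, 2548 and 573 at 13 d, then 137, 540 and 984 at 31 d. In all 3 forms 31 d replicate 1 was the lowest table, and for each of them 31 d replicate 3 lay within the range of the 13 d tables or above it, so the days overlapped.

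The plus-strand forms that began 3 bases upstream, at 31511239, had lower deposited ratios than these 3 forms in every table that listed them. The 23-nt form from that base (to 31511261) had 82.3 and 268 at 3 d, 259, 347 and 87.2 at 13 d, then 29.3, 101 and 69.7 at 31 d in the authors' deposited tables. The 24-nt form (to 31511262) was the only plus-strand alignment with a ratio below 10 anywhere, 7.92 in 31 d replicate 1, and it reached 934 in 13 d replicate 2. The most frequent plus-strand 5′ end was 31511242, with 43 of the 156 listings and 8 distinct lengths from 17 to 24 nt, followed by 31511239 with 36 listings. Lengths of 20 to 24 nt, the range of Dicer products, made up 28 of the 35 plus-strand alignments.

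On the minus strand, the sense strand, the highest median ratio among the alignments listed in all 8 tables belonged to a 22-nt form (31511241 to 31511262). It had 927 and 6274 at 3 d, 1831, 2993 and 938 at 13 d, then 258, 690 and 2757 at 31 d in the authors' deposited tables, with a median of 1384. The 21-nt form 31511241 to 31511261 had a median of 727 and ran from 71.1 in 31 d replicate 1 to 8549 in 3 d replicate 3. A 23-nt form (31511240 to 31511262) had a median of 535 and ran from 129 in 31 d replicate 2 to 4836 in 3 d replicate 3. The 3 forms differ by 1 base at an end, yet the first kept a ratio of 2757 in 31 d replicate 3 where the other two had 231 and 239. Another form, 31511240 to 31511261, named here after its values were seen, had 1287 and 3586 at 3 d and 50.1, 28.0 and 80.7 in the 31 d tables, which do not overlap. The most frequent minus-strand 5′ end was 31511262, with 45 of 265 listings, and 31511261 had 43. Lengths of 20 to 24 nt made up 41 of 67 minus-strand alignments, and the rest reached from 14 to 30 nt.

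Ratios differed by 5′ end on both strands. Neighbouring 5′ ends were joined into an upper and a lower group on each strand, named by their coordinates; the groups were drawn after the data were seen and are given without a test. On the plus strand the upper group started at 31511240 to 31511242 and the lower group at 31511237 to 31511239. The median log2 ratio of 20 to 24 nt alignments was higher in the upper group in 8 of 8 tables, by 1.43 to 4.61 with a median difference of 2.61. The minus-strand upper group started at 31511260 to 31511262 and the lower group at 31511256 to 31511259. There too the upper group was higher in 8 of 8 tables, by 1.66 to 3.97, with a median difference of 2.45. The smallest differences were in 13 d replicate 3 for the plus strand and 13 d replicate 1 for the minus strand, and the 3 d tables held the largest for the plus strand, 4.61 and 4.42.

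**Figure D2:**
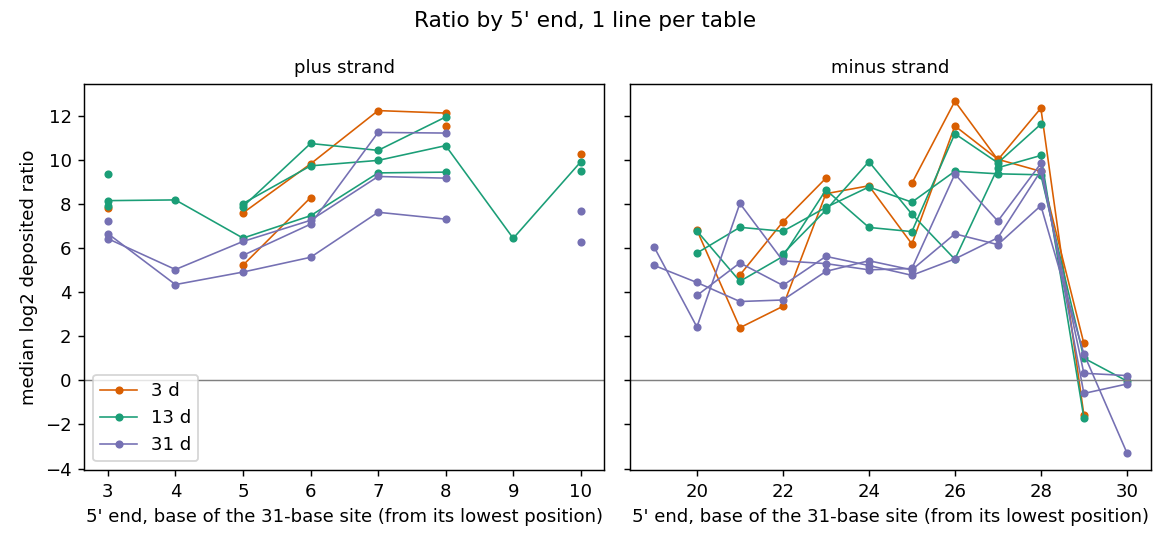
Median log2 deposited ratio of site alignments above 0 by the base at which the alignment's 5′ end lies, for each strand, with 1 line per table coloured by day. The 5′ ends at bases 6 to 8 (plus strand) and 26 to 28 (minus strand), the upper groups, hold the highest values in most tables, and on the minus strand values drop from 1 base to the next, to between -1.69 and 1.67, in the 7 tables that list both.

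The minus strand had a sharp upper limit. Over the 8 tables, 103 of 106 listings with a 5′ end at 31511260 to 31511262 had a deposited ratio of 10 or more, and their median ratio was 461. With a 5′ end 1 or 2 bases farther out, at 31511263 or 31511264, 1 of 34 listings did, the median ratio was 0.821, and 9 were at 0. The single exception was a 21-nt alignment (31511243 to 31511263) at 13.9 in 13 d replicate 3, and its other 4 ratios lay between 1.25 and 5.53 in the authors' deposited tables. Alignments with a 3′ end at 31511244 are an example, chosen after their values were seen. The 20-nt form to 31511263 had ratios of 1.84 and 0.338 at 3 d, 0.309 and 2.01 in 13 d replicates 1 and 3, and 0.515, 0.984 and 1.42 at 31 d in the authors' deposited tables. The 19-nt form to 31511262, 1 base shorter at the 5′ end, had 3079.5 in 13 d replicate 3 and 294, 2942 and 419 at 31 d. The ranges did not overlap, in tables made from the same library pairs. The alignments with a 5′ end at 31511263 or 31511264 supplied 33 of the 51 site listings under 10, and 17 of the others were minus-strand alignments with 5′ ends farther in.

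At the same side of the site plus-strand alignments have their 3′ ends, and these showed no such limit inside it. Plus-strand 5′ ends did have limits inside the site: they ran from 31511237 to 31511244. Listings fell from 43 at 31511242 to 1 at 31511243 and 7 at 31511244. Forms from 31511242 kept high ratios to the last base of the site and past it. The form that ends 1 base outside (31511242 to 31511266) had ratios of 924 in 13 d replicate 1, 1029 in 13 d replicate 3 and 87.9 in 31 d replicate 1, and the form that ends 2 bases outside had 20.6 in 1 table, all in the authors' deposited tables. At the other edge, the minus-strand 22-nt form that ends on the first base of the site (31511235 to 31511256) had ratios of 168 and 926 at 3 d, 142, 184 and 195 at 13 d, then 48.3, 44.3 and 77.1 at 31 d in the authors' deposited tables. Its 23-nt neighbour just outside (31511234 to 31511256) had 32.5 and 33.1 at 13 d and 25.8 and 12.3 at 31 d. Of 22 minus-strand alignments that crossed an edge of the site, 3 reached a ratio of 10 in any table and 12 were at 0 in each table that listed them. Both plus-strand alignments that crossed an edge reached it.

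The ends of the strands were also compared with the form Dicer leaves, a duplex with 2-nt 3′ overhangs on both sides. Among the 17 alignments listed in all 8 tables, 7 plus and 10 minus, 3 of the 70 opposite-strand pairs had this geometry. In the upper groups the plus-strand 23-nt form 31511242 to 31511264 paired so with the minus-strand 23-nt form 31511240 to 31511262, and the 22-nt form 31511242 to 31511263 with 31511240 to 31511261. The third pair, in the lower groups, was plus 31511239 to 31511261 with minus 31511237 to 31511259. Overhangs of 3 nt on the plus and 2 nt on the minus strand occurred in 4 of the 70 pairs. Those of 4 nt on both strands, among others, occurred in 3, so the 2-nt geometry was not the most frequent. The minus-strand form with the highest median ratio, 31511241 to 31511262, is 1 base shorter at its 3′ end than the partner in the first pair. A match of ends describes positions and does not show that the strands were paired in cells.

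**Figure D3:**
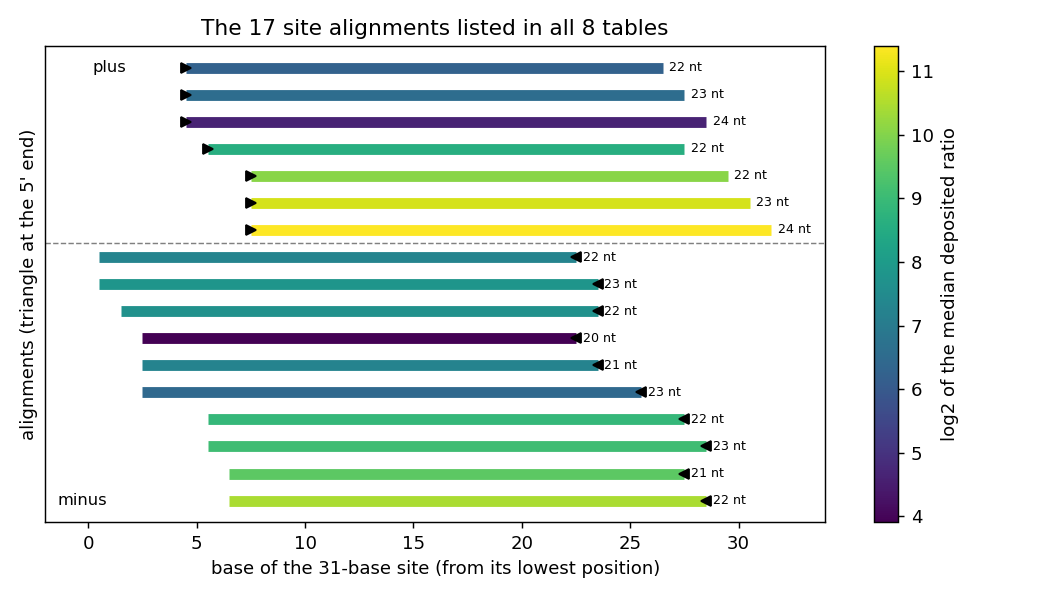
The 17 site alignments listed in all 8 tables, drawn to scale over the 31 bases of the site, plus strand above the dashed line and minus strand below, with a triangle at each 5′ end and colour for the log2 of the median deposited ratio. The brightest bars, with median ratios of 1071 to 2697 on the plus strand and 1384 on the minus strand, belong to the upper groups, and the darkest to the lower groups.

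Across the days, site ratios at 31 d were the lowest on the minus strand and overlapped with earlier days on the plus strand. The minus-strand medians of 5.31 to 5.81 at 31 d lay below all 5 tables of the earlier days, which ran from 7.34 to 9.69. On the plus strand the 31 d medians of 6.62 to 9.01 overlapped those of 3 d (8.12 and 9.68) and 13 d (8.81 to 10.51). By group, the upper minus-strand median was on average 11.25 at 3 d, 10.09 at 13 d and 7.53 at 31 d, and the lower one 8.0, 7.62 and 5.27. For the plus strand these averages were 10.92, 10.24 and 8.52 for the upper group and 6.40, 8.02 and 6.08 for the lower group. The lower plus-strand group was the only one of the 4 without its highest average at 3 d. The number of site alignments listed also varied, with 35 and 37 at 3 d, 39, 41 and 71 in the 13 d tables and 76, 62 and 60 in the 31 d tables, and its part in these differences was not tested.

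Set against the whole series, 26250 alignments had a ratio above 0 in all 8 tables, and 14 of them (0.0533%) reached 10 in every table. All 14 lay in the DROSHA site, 6 on the plus strand and 8 on the minus strand, and none elsewhere. The site was singled out on these same ratios, so its place at the top is a description and was not tested. The highest alignment outside the gene by its lowest ratio was a 19-nt plus-strand alignment on chromosome 11 (96074611 to 96074629), with a lowest ratio of 8.45 and log2 ratios from 3.08 to 6.40 in the authors' deposited tables. The 3 site alignments listed everywhere that fell short of 10 in some table were the plus-strand 24-nt form from 31511239, at 7.92, and 2 minus-strand forms of the lower group, 31511237 to 31511256 at 7.02 and 31511237 to 31511259 at 9.98.

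Outside the site, few sense alignments in the gene had any numerator reads. Of 1082 distinct sense alignments, 1035 (95.7%) were never above a ratio of 0, and 997 were listed in 1 table only. Of 142 distinct antisense alignments, 126 (88.7%) were never above 0, and 126 were listed in 1 table only. The same shares over all distinct alignments are not given here, so these counts are a description. In 3 d replicate 1, 3 of 249 listed sense alignments were above 0, and in 3 d replicate 3 it was 11 of 239. At 13 d the counts were 3 of 59, 10 of 86 and 9 of 93, and at 31 d they were 13 of 239, 9 of 91 and 11 of 157. The share at ratio 0 was therefore 98.8% and 95.4% at 3 d, 94.9%, 88.4% and 90.3% at 13 d, then 94.6%, 90.1% and 93.0% at 31 d. Over all alignments of the same tables it was 93.1% and 80.6%, then 77.9%, 81.9% and 80.8%, then 80.3%, 73.2% and 83.5%. The antisense share, over 9 to 33 listed alignments a table, ran from 55.6% (13 d replicate 1) to 92% (3 d replicate 1). It lay above that of all alignments in 13 d replicate 2 and at 31 d, and below it elsewhere. Against the same lengths it was lower in 13 d replicates 1 and 3 and higher elsewhere. These antisense shares include the alignments that cross the site's edge. Without those it was 71.4% in 13 d replicate 1, 80% in 13 d replicate 3 and 93.3% in 31 d replicate 1. The same-length share in 13 d replicate 3 was 77.3%, so the direction there rests on the edge alignments. The antisense share was not tested, so the sense excess below is not shown to be specific to that strand.

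The sense-strand share at 0 exceeded that of its table in 8 of 8 tables, by 11.8 ± 4.55 percentage points (mean ± SD over the 8 tables). An exact two-sided sign-flip permutation test over the tables gave p = 0.0078, the smallest that 8 tables can give. The p-value was 0.0312 after Benjamini-Hochberg adjustment over the 4 such permutation tests made on the rest of the gene. All sign-flip tests given here take the tables as independent. If a replicate number is the same culture across days, which the titles do not say, their p-values are too small. Against alignments of the same length the excess was 8.59 points. Against the median of genomic windows as wide as the gene it was 8.05 points, taking only windows with 50 or more listed alignments. Both were positive in 8 of 8 tables, with p = 0.0078 in the same exact test. The gene's share lay above the upper quartile of these windows in 6 of 8 tables and below it in 13 d replicate 2 (88.4% against 89.1%) and 13 d replicate 3 (90.3% against 90.6%). For alignments of 20 to 24 nt alone the excess was 7.64 points, in 7 of 8 tables, with an adjusted p of 0.0938 in the exact permutation test. The abundance of the alignments bears on whether a ratio is 0, and its part in the excess was not tested.

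**Figure D4:**
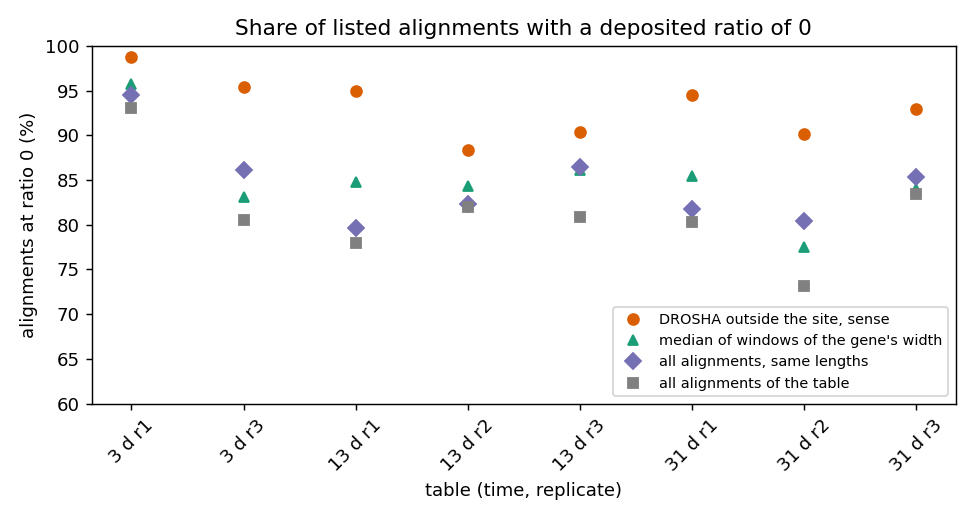
Share of listed alignments with a deposited ratio of 0, by table: sense alignments in DROSHA outside the site (circles), all alignments (squares), alignments of the same lengths (diamonds) and the median of windows of the gene's width (triangles). The y axis starts at 60%; the circles, between 88.4% and 98.8%, are the highest mark in each table.

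Among alignments with a ratio above 0, no difference in median between the rest of the gene and its tables passed the threshold of 0.05. The sense-strand median log2 ratio exceeded that of the table by 0.49 on average (adjusted p = 0.406, exact sign-flip permutation test), with 3 tables above, 1 below and 4 equal to it. It was 0.16 without 3 d replicate 1, 0.30 without 13 d replicate 3 and 0.18 for alignments clear of the site. For the antisense strand the excess was 1.14 (adjusted p = 0.188, same exact test), and it was 0.31 once the 2 alignments that overlap the site were left out. The difference between the strands, sense minus antisense, was -0.65 (adjusted p = 0.406, same exact test). It was -1.15 without 3 d replicate 1, -0.37 without 13 d replicate 1, -0.29 without 31 d replicate 1 and -0.13 clear of the site. When the mean over alignments was taken in place of the median, the sense excess was 0.90 (adjusted p = 0.0156, exact test) and the antisense excess 1.71 (adjusted p = 0.0417, exact test), with the alignments at the site's edges included. Those reached ratios of 38.4 (sense) and 1029 (antisense), and they adjoin the site chosen for high ratios. No mean was taken without them, so these 2 p-values cannot speak for the gene clear of the site. The values with the edges included rest on 3 to 13 sense and 2 to 4 antisense alignments a table. Those clear of the site rest on 2 to 10 sense and 1 to 3 antisense alignments a table. The 4 sense ties with a table were exact, and low ratios recur in steps.

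Clear of the site, 37 sense and 14 antisense alignments were ever above 0, and 2 of them, both sense, reached a ratio of 10 in any table. The first was a 14-nt alignment (31501733 to 31501746) with 13.5 and 50.7 at 3 d, 1.08 and 2.03 in 13 d replicates 1 and 2, and 0.412, 18.3 and 4.11 at 31 d in the authors' deposited tables. The second was a 12-nt alignment (31495239 to 31495250) with 19.6 in 31 d replicate 2, 0.411 in 31 d replicate 3 and 0 in 31 d replicate 1. On the antisense strand the highest ratio clear of the site was 9.04, for a 22-nt alignment (31531189 to 31531210) listed in 31 d replicate 3 alone. A 14-nt antisense alignment (31436211 to 31436224) was above 0 in the 4 tables that listed it, at 1.23, 5.07, 1.08 and 8.99 in the authors' deposited tables, and was not listed at 31 d. Sequences this short can match more than 1 place in the genome, and the sources used here do not say how the authors placed such reads. Only 1 alignment outside the site, a 22-nt sense one (31515571 to 31515592), was listed in all 8 tables, and it was at 0 in 6 of them and at 1.03 and 0.117 in 31 d replicates 1 and 3.

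A limma fit over all alignments that were above 0 in every table of a day could use very few of these. At 3 d it tested 2 alignments from the rest of the gene, and 1 was called at an adjusted p below 0.05, where 3.21% of the 111976 alignments tested were called. This was the 14-nt sense alignment at 31501733, with a mean log2 ratio of 4.71 ± 1.36 (SE) and an adjusted p of 0.0230 in limma. Its adjusted p was 0.0992 after each table was centred on its median and 0.0503 in a limma fit of the 3 d tables alone, and the call was also lost without 3 d replicate 1 (adjusted p = 0.302) and without 3 d replicate 3 (adjusted p = 0.388), where the lone table is assumed to vary like the other days' tables. The antisense alignment at 31436211 had 1.32 ± 1.36 (SE), with an adjusted p of 0.717 in limma. At 13 d none was tested (8.73% of 69772 called). At 31 d 1 was tested and not called (1.25% of 123762 called): the alignment at 31501733, at 1.65 with an adjusted p of 0.561 and an unadjusted p of 0.137 in limma. The fit took 1 common variance for all alignments, so these errors are not the spread of an alignment's own pairs.

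Sense alignments of 18 nt or more clear of the site, without those that cross its edges, gathered in places. Joined where they overlap, their 971 listings formed 207 clusters, and 6 of these were present in all 8 tables. The largest cluster lay 79 nt from the gene's start (31532101 to 31532203), with 66 listings of which 3 were above 0 and a highest ratio of 3.57. The next lay 28 nt from the target site on its lower-coordinate side, downstream in the direction of transcription (31511139 to 31511206). It had 64 listings, 7 of them above 0, and the highest ratio was 3.13. Its most often listed form with a ratio above 0, 31511142 to 31511168, had 0.625 and 3.13 in 13 d replicates 2 and 3, 0.618 and 0.821 in 31 d replicates 1 and 3, and 0 in 13 d replicate 1 and 31 d replicate 2 in the authors' deposited tables. None of its ratios reached the site's medians. The other large clusters lay at 31530872 to 31531027 (61 listings, 1 above 0), 31401416 to 31401605 near the far end of the gene (51 listings, 1 above 0), and 31431695 to 31431786 (34 listings, none above 0). Of the 207 clusters, 14 held any listing above 0.

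**Figure D5:**
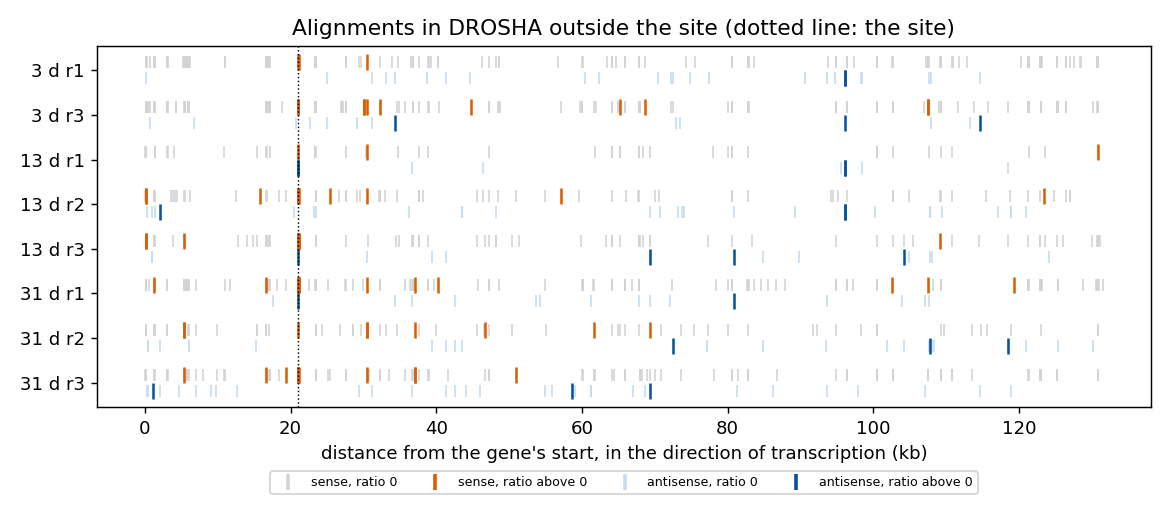
Position of each listed alignment outside the site, as the distance in kb from the gene's start, with 1 row per table, sense marks above antisense marks in each row; pale marks are at ratio 0 and dark marks above 0. Most marks are pale, and the dotted line at the site has dark marks beside it that belong to alignments crossing its edges.

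The plus-strand median at the site was also compared, table by table, with other alignments. Of 6586 alignments of 20 to 24 nt outside the gene and above 0 in all 8 tables, the 5 with the highest Pearson correlation with it over the 8 tables had r of 0.914 to 0.941. The highest was a 22-nt minus-strand alignment on chromosome 8 (22102487 to 22102508, r = 0.941), with log2 ratios from 1.22 to 3.06. The others lay on chromosome 15 (65577906 to 65577929, minus strand, r = 0.935), chromosome 4 (119200345 to 119200368, plus strand, r = 0.927), chromosome 2 (70476164 to 70476186, minus strand, r = 0.925) and chromosome 17 (56082522 to 56082544, minus strand, r = 0.914). These are the best of many over 8 points that share libraries and scaling, and are a description. Their log2 ratios stayed at or below 4.55, where the site's plus-strand median ran from 6.62 to 10.51.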

How the data were processed

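Small-RNA libraries of K562 cells were aligned to hg19 with Bowtie2 2.2.9, per the submitters' processing notes. The authors deposited 8 headerless tables, each with a ratio of 2 scaled read numbers per alignment, and this ratio equals 1 column divided by another. The 32 columns of read numbers carry no library name and were not used, so depth is not given and the count tests first planned were replaced by tests on log2 ratios. Starts were made 1-based. Members were alignments wholly inside the gene or the site, on log2 of ratios above 0. The members and lists were chosen with earlier results of these data known. Named alignments were, per strand, the 3 highest medians among those listed in all tables, those at the site's edges, those past the limma threshold, and the 5 most like the site. Exact sign-flip permutation tests over the 8 tables used Python 3.11.15, and limma 3.58.1 in R 4.3.3 tested day means over all alignments; both were tested on simulated data. The reference given is of another genome build, so no sequence or exon was read from it. Alternatives were tables left out, length limits, centring, overlap rules and a replicate block. Dox and water libraries of a pair share a day and number in the labels, so each ratio is already within a pair.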

Additional observations from a re-analysis of the deposited data

How the results depend on the processing

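Of the 4 tests on the rest of the gene, the excess of sense alignments at 0 was positive under all settings run, from 7.64 points (20 to 24 nt, adjusted p = 0.0938 in the exact permutation test) to 13.2 points (clear of the site). Leaving out each table gave 11.0 to 12.6 points, each with p = 0.0156, the smallest that the exact permutation test can give with 7 tables, and 0.0625 after adjustment with the 3 larger p-values. Taking means in place of medians brought the sense excess to 0.90 and the antisense excess to 1.71, both past the threshold. Alignments crossing the site's edges were included there, and no mean was taken without them. The cause was not tested. The single 3 d call from the rest of the gene became 0 after centring, with 18 nt or more (none tested) and in the 3 d tables alone, and ran from 0 to 1 when tables were left out. At 13 d the count ran from 0 to 1: without replicate 2 a plus-strand alignment and without replicate 3 a minus-strand alignment, both crossing an edge of the site, were called, because leaving out a table let more alignments enter. At 31 d it was 0 throughout. With a replicate block across days the 3 d count was 1 (log2 5.98, adjusted p 0.0140 in limma) and the block changed no call. Over all alignments, the limma calls behind the background shares were 3600 at 3 d (1431 without 3 d replicate 1 to 6411 without 31 d replicate 2), 6088 at 13 d (356 without 13 d replicate 2 to 11925 without 31 d replicate 2) and 1545 at 31 d (130 after centring to 3124 with 18 nt or more). Site medians moved by less than the spread between tables under every setting, and leaving out each table gave means of 8.54 to 9.09 (plus) and 6.90 to 7.53 (minus). Not run for lack of values were the antisense median and the strand difference at 18 nt or more and at 20 to 24 nt, and the sense median at 20 to 24 nt. The comparisons with the same lengths, with windows and clear of the site, and the site means without a table, were chosen after seeing the data.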
